A study of Mus musculus with 4 samples.

Results

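The mitosis and kinetochore genes examined here are 40 genes of mitotic kinases, cyclins, the spindle checkpoint, the centromere, the kinetochore, the spindle and cytokinesis, with the Kif kinesins left out. They were picked by gene symbol from the 24062 genes of the count table, and all 40 were found and had enough reads to be tested, among 15762 genes that did. RNA-seq had been carried out on E13.5 mouse retinas of a mixed C57BL/6 and 129 strain background, with 2 wildtype (WT) and 2 Nrf1 f/f;Six3-Cre (Nrf1-CKO) libraries, each from the pooled retinas of several littermates. Nrf1 encodes nuclear respiratory factor 1, a transcription factor known for its control of mitochondrial genes. In the Nrf1-CKO embryos, both Nrf1 alleles carry loxP sites around exon 4, and the Six3-Cre transgene removes that exon in retinal progenitors, starting in the central retina, so that the peripheral retina and non-retinal cells can keep an intact gene. The comparison asks how the RNA of the division machinery differs between retinas with and without Nrf1 in their progenitors.

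Retinal progenitors divide at the apical surface of the neuroblast layer, and at E13.5 they make up most of the retina. Cdk1, bound to cyclin A or cyclin B, drives a cell into mitosis, while Polo-like and Aurora kinases build the spindle. The inner kinetochore sits on centromeric chromatin marked by Cenpa, the outer kinetochore binds microtubules, and the spindle checkpoint holds back the anaphase-promoting complex until every chromosome is attached. Most of these genes are transcribed in G2 and M phase through CHR elements and CCAAT boxes in their promoters, so their RNA is widely read as a measure of cycling cells.

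The libraries held from 74577660 to 85933945 reads counted on genes, and each of the 40 genes had at least 908 reads in every library. Progenitor markers such as Pax6 and Sfrp2 were abundant in all 4 libraries, which fits the labelled tissue. Reads on Nrf1 were 9052 and 7789 in WT and 8594 and 8284 in Nrf1-CKO, so the gene total did not separate the genotypes, and since only exon 4 is removed it does not check the labels. Markers of other cell types moved with the genotype. Summed over 10 lens genes, the level in CPM (read counts relative to the library size after edgeR's TMM scaling) was 146 and 419.9 in WT and 8617 and 3548 in Nrf1-CKO, while 10 macrophage and microglia genes summed to 81.3 and 74.2 against 258 and 309.8. The 12 ganglion cell genes summed to 3386 and 3852 against 1452 and 1149.6. All 12 were called lower at a change of at least 1.4-fold and an adjusted p of at most 0.2, beside 8.04% of all tested genes. By the same rule, 12.8% of all tested genes were called higher. Called higher were 9 of the 10 lens genes, all 10 macrophage and microglia genes and 8 of 10 endothelial genes (1 was lower). So were 6 of 8 tested pigment epithelium genes, 6 of 10 periocular mesenchyme genes and 4 of 6 tested erythroid genes, while Hba-a1 and Hbb-bt of the erythroid list had 0 reads. The part of this cell makeup in the values of the division genes was not tested. In such bulk samples, fewer cells of a type and less RNA per cell cannot be told apart.

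Relative to the reads of each library, the RNA of the division machinery was close to its WT level in Nrf1-CKO retinas. Such relative levels do not give the number of dividing cells in a retina. By cell counts, the study reported fewer progenitors in S phase and in M phase per section of such retinas at E13.5. None of the 40 genes was called lower and none was called higher at a change of at least 1.4-fold and an adjusted p of at most 0.2 (edgeR quasi-likelihood test, Benjamini-Hochberg adjustment over 15762 genes). Of all tested genes, 8.04% were called lower and 12.8% higher by this rule. At an unadjusted p under 0.05, 7 of the 40 genes passed, 6 lower and 1 higher, beside 16.9% lower and 17.9% higher among all tested genes. DESeq2, edgeR's exact test and limma on the deposited normalized values also called 0 of 40 by the first rule. Over all tested genes, DESeq2 called 1201 lower and 1904 higher of 18626, and the exact test 1313 and 2140 of 15762. Limma called fewer, 722 lower and 941 higher of 18624. At an adjusted p of at most 0.05 with no minimum fold, Mad2l1 and Cenpi were lower and 0 genes were higher, beside 10.9% lower and 11.9% higher among all tested genes. The log2 fold changes of the 40 genes, Nrf1-CKO over WT, ran from -0.35 for Cenpi to 0.25 for Ccnb1, with a median of -0.05, beside 0.00073 for all tested genes. They were negative for 25 genes and positive for 15, beside 49.9% negative among all tested genes. With scaling by library size only 29 were negative, and with upper-quartile factors 20. The median of the 40 genes was -0.0084 with upper-quartile factors, beside 0.040 for all tested genes. It ran from -0.11 to -0.041 with 1 library left out.

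For most of the genes, the interval of the change was narrow. The 95% interval of the log2 fold change lay within a change of 1.4-fold in either direction for 36 of the 40 genes, and it passed that limit on the lower side for Mad2l1, Cenpi, Cenph and Pttg1. It lay within 1.5-fold for 39 genes, or 97.5%, beside 54.1% of all tested genes. All tested genes include those with few reads, as the filter's minimum count was 10. Each of the 40 genes had at least 908 reads in every library, and the part of read depth in this contrast was not tested. The standard error had a median of 0.083 over the 40 genes and of 0.12 over all tested genes, so the division genes were measured more precisely than most. The median size of the genotype difference was 0.11, beside a median difference of 0.09 between the WT libraries and 0.08 between the Nrf1-CKO libraries of the same genes, all on the log2 scale.

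**Figure D1:**
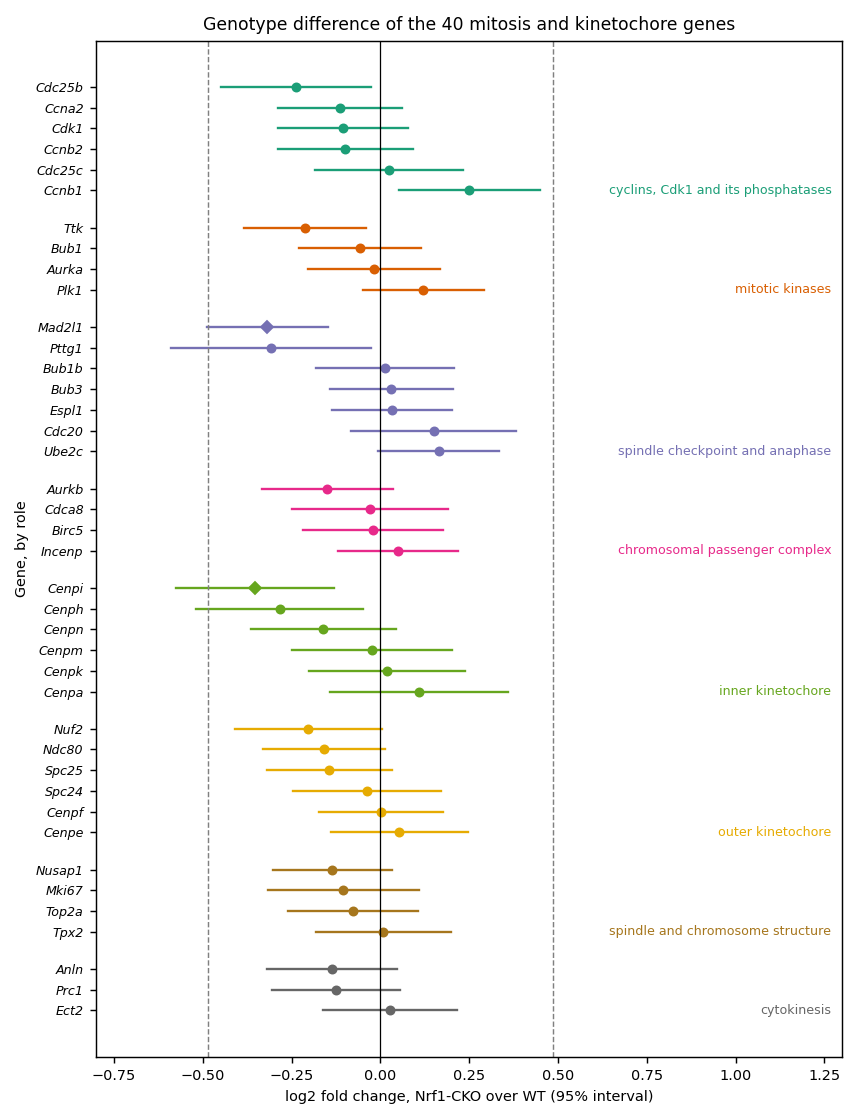
Log2 fold change, Nrf1-CKO over WT, of each of the 40 genes, sorted within 8 role groups (colours), with the 95% interval from edgeR as a horizontal line. Dashed lines mark a change of 1.4-fold, and diamonds mark Mad2l1 and Cenpi, the genes with an adjusted p of at most 0.05. Every point lies between the dashed lines, from -0.35 to 0.25.

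Promoter sequence was examined because CHR elements and CCAAT boxes are shared by genes of this class and because the deleted factor binds a known GC-rich site. Of the 40 genes, 34 had an entry in the RefSeq promoter table (GRCm38.p6), which gives 250 bases before and 50 bases after each transcription start, and Ccna2, Cdc25c, Aurkb, Spc24, Incenp and Tpx2 were without one. The searched letters were TTTGAA or TTCGAA for the CHR, CCAAT for the CCAAT box, TTTCCCGC, TTTCGCGC, TTTGCCGC or TTTGGCGC for the E2F site and GCGCANGCG for the Nrf1 site, each on both strands. Matches of different motifs may share bases and were counted for each motif. The CHR letters were found for 24 of the 34 genes, or 70.6%, beside 19.4% of 16781 genes of the count table with a promoter. CCAAT was found for 27 genes, or 79.4%, beside 42.1%. The E2F letters were found for Cdk1 and Cenpm, or 5.88%, beside 3.22%. The Nrf1 letters were found for Aurka, Ndc80, Prc1 and Anln, or 11.8%, beside 9.73%. Of 57 other mitosis genes with a promoter, from a list described below, 50.9% held the CHR letters, 61.4% CCAAT, 17.5% the E2F letters and 15.8% the Nrf1 letters. Of 25 DNA replication genes, these shares were 24%, 64%, 48% and 12%. The windows of Mad2l1, Pttg1, Birc5, Nuf2 and Nusap1 held none of the 4 motifs. For Mad2l1, Pttg1, Cdca8 and Cenpm, the RefSeq window did not include the start of the gene in GENCODE.

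The promoters printed here are those of the 4 genes with the Nrf1 letters, followed by those of the lower genes Mad2l1 and Cenpi and of Ccnb1, which had the highest log2 fold change. They are given 5′ to 3′ on the strand of the gene, and capitals mark matches to the 4 motifs on either strand.
Aurka, chr2:172370521-172370820, minus strand: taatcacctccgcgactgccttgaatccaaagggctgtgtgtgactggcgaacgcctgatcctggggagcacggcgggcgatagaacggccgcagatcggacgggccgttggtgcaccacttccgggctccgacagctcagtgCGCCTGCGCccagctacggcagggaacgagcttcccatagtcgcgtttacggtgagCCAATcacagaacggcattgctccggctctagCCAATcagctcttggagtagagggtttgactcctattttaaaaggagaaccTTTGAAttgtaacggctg
Ndc80, chr17:71526808-71527107, minus strand: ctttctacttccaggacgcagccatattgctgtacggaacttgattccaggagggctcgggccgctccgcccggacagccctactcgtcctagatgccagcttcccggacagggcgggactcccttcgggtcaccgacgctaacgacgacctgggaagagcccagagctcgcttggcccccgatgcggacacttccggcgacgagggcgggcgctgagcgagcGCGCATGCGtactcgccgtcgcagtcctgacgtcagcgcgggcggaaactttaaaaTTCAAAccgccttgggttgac
Prc1, chr7:80294201-80294500, plus strand: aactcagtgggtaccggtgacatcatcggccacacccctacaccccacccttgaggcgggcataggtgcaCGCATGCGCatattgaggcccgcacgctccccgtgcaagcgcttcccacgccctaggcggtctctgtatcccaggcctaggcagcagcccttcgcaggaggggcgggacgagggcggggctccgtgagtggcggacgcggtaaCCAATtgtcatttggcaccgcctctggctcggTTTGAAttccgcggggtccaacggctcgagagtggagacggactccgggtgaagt
Anln, chr9:22389157-22389456, minus strand: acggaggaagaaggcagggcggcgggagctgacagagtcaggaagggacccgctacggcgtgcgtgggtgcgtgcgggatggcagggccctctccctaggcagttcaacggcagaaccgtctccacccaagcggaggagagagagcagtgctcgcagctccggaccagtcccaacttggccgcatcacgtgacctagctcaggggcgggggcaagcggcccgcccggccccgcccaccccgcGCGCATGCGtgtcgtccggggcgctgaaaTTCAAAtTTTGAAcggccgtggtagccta
Mad2l1, chr6:66534971-66535270, plus strand: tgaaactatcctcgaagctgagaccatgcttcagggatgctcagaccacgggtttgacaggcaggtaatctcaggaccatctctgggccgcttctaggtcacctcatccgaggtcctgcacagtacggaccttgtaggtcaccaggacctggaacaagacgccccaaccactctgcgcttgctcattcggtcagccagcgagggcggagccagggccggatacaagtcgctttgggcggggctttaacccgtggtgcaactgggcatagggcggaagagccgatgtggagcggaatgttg
Cenpi, chrX:134307834-134308133, plus strand: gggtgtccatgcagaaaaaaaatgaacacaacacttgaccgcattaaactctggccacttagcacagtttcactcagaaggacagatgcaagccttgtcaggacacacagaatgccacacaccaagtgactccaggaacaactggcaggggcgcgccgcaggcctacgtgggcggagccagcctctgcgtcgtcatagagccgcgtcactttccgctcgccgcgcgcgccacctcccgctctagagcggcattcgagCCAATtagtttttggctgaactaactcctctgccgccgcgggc
Ccnb1, chr13:100786437-100786736, minus strand: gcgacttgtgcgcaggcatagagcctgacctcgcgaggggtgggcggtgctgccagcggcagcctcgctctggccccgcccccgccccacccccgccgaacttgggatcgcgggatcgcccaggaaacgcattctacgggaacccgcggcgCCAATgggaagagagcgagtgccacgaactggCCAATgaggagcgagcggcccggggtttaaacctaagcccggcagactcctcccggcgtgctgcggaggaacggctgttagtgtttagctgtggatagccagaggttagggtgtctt
The first base of the Nrf1 letters lay at -107 from the transcription start in Aurka, at -27 in Ndc80, at -8 in Anln and at -180 in the first of 2 Prc1 promoters. In Ndc80 and Anln, the CHR letters lay after the start, at 29 in Ndc80 and at 21 and 28 in Anln. The window of Mad2l1, which ends before the GENCODE start at 66535390, held no match, Cenpi held CCAAT at 7, and Ccnb1 held CCAAT at -99 and -67. A match describes letters in the window and is no evidence of binding, and a window without one says nothing of the factor.

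The 4 genes with the Nrf1 letters had log2 fold changes from -0.16 to -0.02 with a median of -0.13, and 0 of 4 passed either rule. The 30 other genes with a promoter had a median of -0.04 and ranged from -0.35 to 0.25, so the 4 genes lay inside their range. The 24 genes with the CHR letters had a median of -0.04 and the 10 without had a median of -0.17. Mad2l1 and Cenpi were both among the 10 without. These medians are descriptions of few genes and were not tested.

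**Figure D2:**
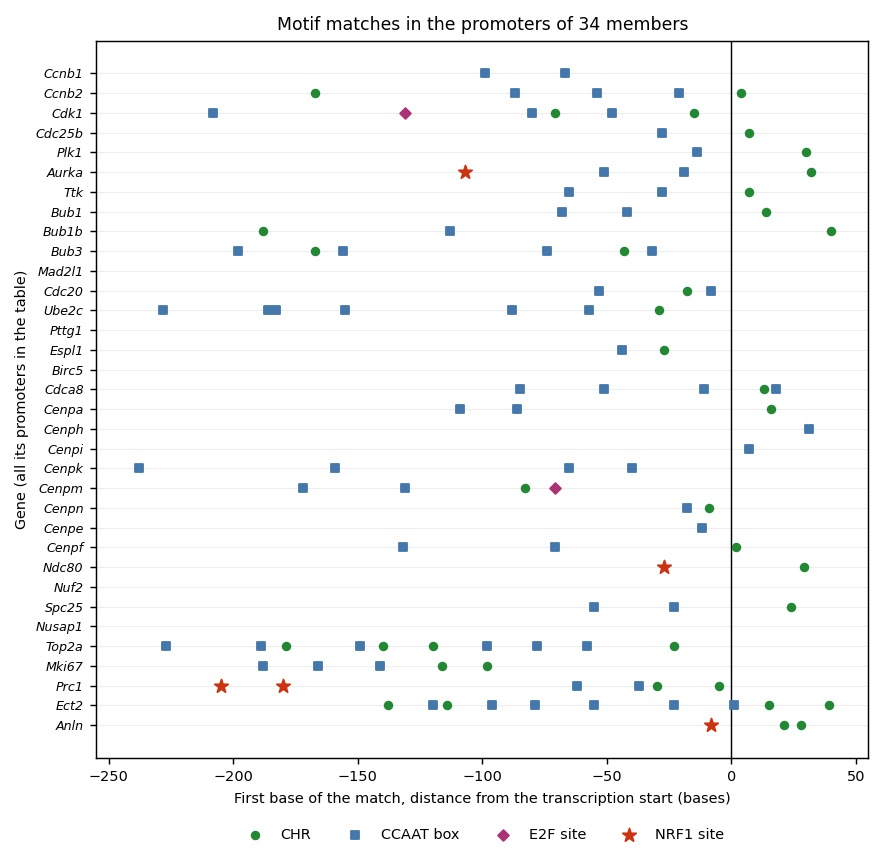
First base of each motif match in the promoters of 34 genes, as distance from the transcription start in bases, with all promoters of a gene on 1 row. Green circles are CHR, blue squares CCAAT, purple diamonds E2F and red stars Nrf1 letters. CCAAT lies mostly before the start, CHR lies on both sides of it, and red stars appear for Aurka, Ndc80, Prc1 and Anln.

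Among the cyclins, Cdk1 and its phosphatases, 0 of 6 genes passed either rule, and their log2 fold changes had a median of -0.10. Cdk1 (chr10:69335146-69352938), the kinase that starts mitosis, was at 171 and 159 CPM in WT and at 147 and 159 CPM in Nrf1-CKO. The second library of each genotype was at the same level, so the genotypes overlapped (log2 fold change -0.10, interval -0.29 to 0.08). Ccna2 (chr3:36564865-36572150), cyclin A2, was at 342 and 329 CPM in WT and at 313 and 307 CPM in Nrf1-CKO. Here both mutant libraries were lower, with a log2 fold change of -0.11 that did not pass (edgeR adjusted p = 0.338). Exons of Exosc9 on the opposite strand cover 12.5% of the exonic bases of Ccna2, and whether reads were counted by strand is not given in the sources used here. Ccnb1 (chr13:100778650-100786570), cyclin B1, was at 66.9 and 58.3 CPM in WT and at 73.5 and 75.5 CPM in Nrf1-CKO. Both mutant libraries were higher, and its log2 fold change of 0.25 (SE 0.087, interval 0.05 to 0.45) had an edgeR adjusted p of 0.0728. That p was 0.0411 with the replicate number as a block and 0.0436 with upper-quartile factors, and 0.404 without the second WT library. Ccnb2, cyclin B2, had a log2 fold change of -0.10 with overlapping genotypes and an interval of -0.29 to 0.09. Of the Cdc25 phosphatases that remove the inhibitory phosphates from Cdk1, Cdc25b had a log2 fold change of -0.24 (edgeR adjusted p = 0.103) with both mutant libraries lower, and Cdc25c had one of 0.02 with overlapping genotypes. Of the exonic bases of Cdc25c, 12.7% are shared with Gm3550 on the opposite strand.

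Of the mitotic kinases other than Cdk1 and Aurkb, 0 of 4 passed either rule, and the median on the log2 scale was -0.04. Plk1 (chr7:122159439-122169873), which acts from mitotic entry to cytokinesis, was at 101 and 103 CPM in WT and at 109 and 114 CPM in Nrf1-CKO. Both mutant libraries were higher, but the log2 fold change was 0.12 with an interval of -0.05 to 0.29. Aurka (chr2:172356190-172370535), the spindle pole kinase whose promoter is printed above, was at 96.1 and 101 CPM in WT and at 93.0 and 102 CPM in Nrf1-CKO. The mutant values enclosed the WT values (log2 fold change -0.02). Bub1 (chr2:127801122-127831865), a checkpoint kinase at the kinetochore, was at 125.1 and 119.3 CPM in WT and at 119.5 and 115.3 CPM in Nrf1-CKO, and the genotypes overlapped with a log2 fold change of -0.06. Ttk, the kinase that recruits checkpoint proteins to unattached kinetochores, was lower in both mutant libraries, with a log2 fold change of -0.21 that was below the minimum fold (edgeR adjusted p = 0.0798).

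The spindle checkpoint and anaphase group held the larger of the differences beside the kinetochore. Mad2l1 (chr6:66535390-66547220) encodes Mad2, which binds Cdc20 and holds the anaphase-promoting complex inactive, and it was at 124 and 119 CPM in WT and at 98.6 and 95.8 CPM in Nrf1-CKO. Both mutant libraries were below both WT libraries, and the level fell by 19.8% (log2 fold change -0.32, SE 0.075, edgeR adjusted p = 0.0158). The adjusted p was 0.135 without the first WT library and 0.0855 without the second, while the log2 fold change stayed between -0.34 and -0.28 with any 1 library left out. Bub1b (chr2:118598211-118641591), the checkpoint partner BubR1, was at 216 CPM in both WT libraries and at 204 and 232 CPM in Nrf1-CKO. The mutant libraries lay on either side of WT (log2 fold change 0.01). Cdc20 (chr4:118432901-118437352), the activator that Mad2 holds back, was at 185 and 212 CPM in WT and at 203 and 237 CPM in Nrf1-CKO, and the genotypes overlapped with a log2 fold change of 0.15 and an interval of -0.08 to 0.38. Ube2c, the ubiquitin-conjugating enzyme of the anaphase-promoting complex, was higher in both mutant libraries with a log2 fold change of 0.16 (edgeR adjusted p = 0.157), and 22.8% of its exonic bases are shared with Tnnc2 on the opposite strand. Pttg1, the securin that guards separase, was lower in both, with a log2 fold change of -0.31, an SE of 0.12 and an adjusted p of 0.111 in the same edgeR test. Bub3, another checkpoint protein, and Espl1, separase itself, both had a log2 fold change of 0.03. In all, 5 of the 7 genes of this group had a positive sign, beside 7898 of 15762 tested genes, and Mad2l1 and Pttg1 were the exceptions. Of the 5, only Ube2c was higher in both mutant libraries. The log2 fold changes of Bub1b, Bub3 and Espl1 crossed 0 with 1 library left out.

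The chromosomal passenger complex corrects faulty attachments and later sets the place of cleavage. Aurkb (chr11:69045647-69051664), its kinase, was at 116 and 115 CPM in WT and at 98.5 and 109 CPM in Nrf1-CKO. Both mutant libraries were lower, but they differed from each other by more than they differed from WT at the nearest point (log2 fold change -0.15, interval -0.33 to 0.03). Birc5 (chr11:117849251-117855743), survivin, was at 100.7 and 106 CPM in WT and at 95.5 and 108 CPM in Nrf1-CKO, and the mutant values enclosed the WT values. Its log2 fold change was -0.02, that of Cdca8, borealin, was -0.03, and that of Incenp, the scaffold, was 0.05. With 0 of 4 genes past either rule, the summed level of the complex was 503 and 521 CPM in WT and 478 and 527 CPM in Nrf1-CKO.

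In the inner kinetochore, 1 of 6 genes passed the rule with no minimum fold. Cenpi (chrX:134308084-134362639), a subunit of the constitutive centromere network, was at 29.5 and 29.8 CPM in WT and at 24.4 and 22.01 CPM in Nrf1-CKO. The mutant libraries were both lower, and the level fell by 21.7% (log2 fold change -0.35, SE 0.098, edgeR adjusted p = 0.0309). This p was 0.123 without the first WT library, 0.148 without the second and 0.125 without the second Nrf1-CKO library. Cenph, another subunit of that network, was also lower in both, with a log2 fold change of -0.28 and an edgeR adjusted p of 0.0852. Cenph (chr13:100759674-100775899) and Ccnb1 lie on the minus strand of chromosome 13, and their log2 fold changes had opposite signs. Cenpa (chr5:30666777-30674830), the histone H3 variant that marks the centromere, was at 64.3 and 77.1 CPM in WT and at 70.3 and 82.3 CPM in Nrf1-CKO. The libraries of each genotype differed by more than the genotypes did, and the log2 fold change of 0.11 became -0.01 without the first WT library or without the second Nrf1-CKO library. Of the other subunits, Cenpn had a log2 fold change of -0.16, Cenpm one of -0.02 and Cenpk one of 0.02.

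The outer kinetochore held 0 genes past either rule among 6. Ndc80 (chr17:71496100-71526857), the microtubule-binding subunit of the complex named after it and a gene with the Nrf1 letters in its promoter, was at 65.7 and 62.1 CPM in WT and at 57.5 and 57.0 CPM in Nrf1-CKO. Both mutant libraries were lower, with a log2 fold change of -0.16 and an interval of -0.33 to 0.01. The other subunits of the 4-protein Ndc80 complex had the same sign. Nuf2 had a log2 fold change of -0.20 and Spc25 one of -0.14, each with both mutant libraries lower, and Spc24 had one of -0.04 with overlapping genotypes. None of the 4 passed (edgeR adjusted p from 0.15 for Nuf2 to 0.814 for Spc24). Cenpf, a large protein of the outer plate, and Cenpe, a kinetochore motor, had log2 fold changes of 0.00 and 0.05.

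Among the genes of spindle and chromosome structure, 0 of 4 passed either rule, and Top2a and Mki67 had the highest levels of the 40 genes in CPM and in RPKM. Top2a (chr11:98992943-99024189), the topoisomerase that untangles sister chromatids, was at 1485 and 1386 CPM in WT and at 1319.9 and 1403 CPM in Nrf1-CKO. Mki67 (chr7:135689784-135716361), the gene of the Ki67 antigen that coats mitotic chromosomes, was at 1646 and 1473 CPM in WT and at 1539.7 and 1361 CPM in Nrf1-CKO. For each of these the highest library was the first WT library and the genotypes overlapped, with log2 fold changes of -0.08 for Top2a and -0.10 for Mki67. Nusap1, which bundles spindle microtubules, had a log2 fold change of -0.14 with both mutant libraries lower, and Tpx2, the activator of Aurora A on the spindle, had one of 0.01. In cytokinesis, Anln, which links actin and septins in the cleavage furrow, had a log2 fold change of -0.14 and Prc1, which bundles the midzone, one of -0.13, both with both mutant libraries lower. Ect2, the exchange factor that switches on RhoA at the furrow, had one of 0.03. Exons of Rccd1 on the opposite strand cover 11.1% of Prc1.

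Counted over the 40 genes, both Nrf1-CKO libraries were below both WT libraries for 15 genes and above them for 4. Among all tested genes, 31.6% lay below in this way and 30.9% above. The genes below were Ccna2, Cdc25b, Ttk, Mad2l1, Pttg1, Aurkb, Cenph, Cenpi, Cenpn, Ndc80, Nuf2, Spc25, Nusap1, Prc1 and Anln. The genes above were Ccnb1, Plk1, Ube2c and Incenp, and the genotypes overlapped for the remaining 21. Summed over the 40 genes, the level was 8105 and 7704 CPM in WT and 7566 and 7653 CPM in Nrf1-CKO, that is 7904 ± 283 and 7609.7 ± 61.2 CPM (SD, n = 2 each), or 96.3% of WT. The gap between the WT libraries exceeded the gap between the genotype means. The first WT library held the highest value for 22 genes and the first Nrf1-CKO library for 0, while the second Nrf1-CKO library held it for 12 and the lowest value for 11. Relative to the WT mean, the medians of the 40 genes were 0.03 and -0.03 in the WT libraries and -0.11 and -0.04 in the Nrf1-CKO libraries on the log2 scale, so libraries of either genotype differed from each other.

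**Figure D3:**
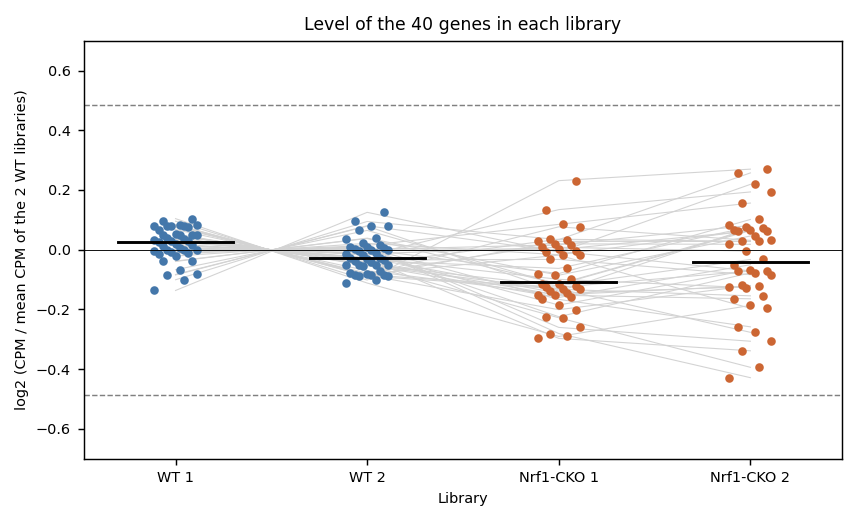
Level of each of the 40 genes in each library as log2 of its CPM over the mean CPM of the WT libraries. Points are genes, grey lines join the same gene, black bars are medians and dashed lines mark a change of 1.4-fold. The medians are 0.03 and -0.03 in WT and -0.11 and -0.04 in Nrf1-CKO, and the points of the libraries overlap.

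Per exon length, the order of the levels was much the same in both genotypes. Levels were computed in RPKM, that is TMM-scaled CPM divided by the length in kilobases of the union of a gene's exons in the GENCODE annotation of GRCm38, so a gene with rare long transcripts is set too low. Top2a stood at 165 and 154 RPKM in WT and Mki67 at 164 and 146 RPKM, and these did not differ beyond the spread of their libraries. Cdc20 came next at 99.1 and 113 RPKM, then Ccna2 at 83.8 and 80.6 RPKM and Tpx2 at 71.9 and 68.4 RPKM, each separate from its neighbours. Below these, many neighbours overlapped, such as Incenp, Aurkb and Aurka near 39 RPKM and Ttk, Anln, Ccnb1, Espl1, Spc24, Mad2l1, Nuf2 and Cenpn between 12.7 and 16.0 RPKM in WT. Cdc25c, Cenpk and Cenpi were lowest, with Cenpi at 5.19 and 5.24 RPKM in WT and at 4.29 and 3.87 RPKM in Nrf1-CKO.

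**Figure D4:**
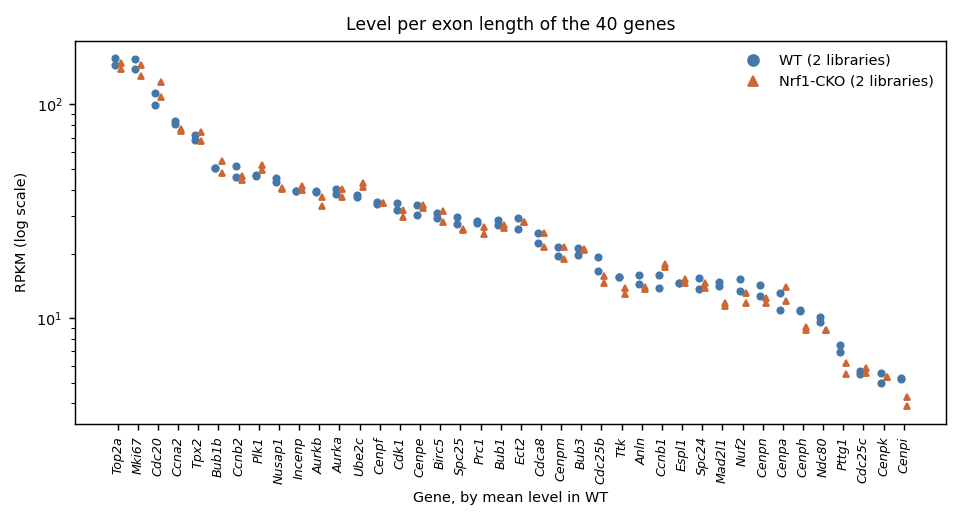
Level per exon length of each of the 40 genes in RPKM on a log axis, sorted by the WT mean, with circles for the WT libraries and triangles for the Nrf1-CKO libraries. The levels span from 165 RPKM for Top2a to 3.87 RPKM for Cenpi, and the triangles follow much the same order as the circles, with some changes of rank.

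The other genes of mitosis showed a like spread with a few larger differences. These were 72 further genes, mainly of mitotic entry, the kinetochore, the checkpoint, the anaphase-promoting complex, condensin, cohesin, the spindle and cytokinesis. Of the 72, 2 were called lower and 0 higher, beside 8.04% and 12.8% of all tested genes, and the log2 fold changes had a median of -0.09. The genes called lower were Ska1, of the Ska complex that couples kinetochores to microtubule ends, at 14.9 and 17.2 CPM in WT and 12.1 and 9.92 CPM in Nrf1-CKO (log2 fold change -0.54), and Dsn1, of the Mis12 complex, at 32.1 and 31.8 CPM in WT and 23.6 and 21.7 CPM in Nrf1-CKO (log2 fold change -0.50). At an adjusted p of at most 0.05, 9 of the 72 were lower, Cenpt with a log2 fold change of -0.37 among them, and 1 was higher, the cytokinesis kinase gene Cit at 0.27, beside 10.9% lower and 11.9% higher among all tested genes. Of 17 regulators of transcription in G2 and M phase, 0 passed either rule with edgeR, and the median was -0.03. An unadjusted p under 0.05 was found for 3 lower genes and 1 higher gene, beside the same 16.9% and 17.9% of all tested genes. The factor Foxm1 was at 132 and 127 CPM in WT and 128 and 126 CPM in Nrf1-CKO (log2 fold change -0.03), and the log2 fold change of Mybl2 was -0.07.

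Genes of other cell cycle phases were set beside the mitotic genes. Of 31 DNA replication genes, 1 was called lower, the licensing inhibitor Gmnn at 41.5 and 38.0 CPM in WT and 25.8 and 28.5 CPM in Nrf1-CKO (log2 fold change -0.55), and 0 were called higher, beside the same shares of all tested genes. Their median was -0.13, and 7 were lower at an adjusted p of at most 0.05, beside 10.9% of all tested genes, with Pola2 at -0.40 and Prim1 at -0.33 on the log2 scale. The sliding clamp gene Pcna had a log2 fold change of -0.22 (edgeR adjusted p = 0.0644) and the helicase gene Mcm2 one of 0.05. Of the 17 genes of the G1 list, 2 were called lower and 3 higher, beside 8.04% and 12.8% of all tested genes, and the median was -0.06. Ccnd1, cyclin D1, was at 2541 and 2775 CPM in WT and 1390.1 and 1502 CPM in Nrf1-CKO (log2 fold change -0.88), and Cdk6 had a log2 fold change of -0.78. Cdkn1a, the p21 inhibitor, was at 2.82 and 1.47 CPM in WT and 15.8 and 19.00 CPM in Nrf1-CKO (log2 fold change 3.01), Ccnd2 had a log2 fold change of 1.09 and Cdkn1c one of 0.58. The size of these G1 differences exceeded that of any of the 40 mitotic genes. Whether the lists differ from each other was not tested.

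Of 12 retinal progenitor markers, Hes5 and Fgf15 were called lower, with log2 fold changes of -0.72 and -0.70, and 0 were called higher, beside 8.04% and 12.8% of all tested genes. The median was -0.11, and the sum was 6255 and 6677 CPM in WT and 5534 and 5963 CPM in Nrf1-CKO. Pax6 was at 633 and 660.1 CPM in WT and 644 and 669 CPM in Nrf1-CKO. The part of these markers in the values of the mitotic genes was not tested.

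**Figure D5:**
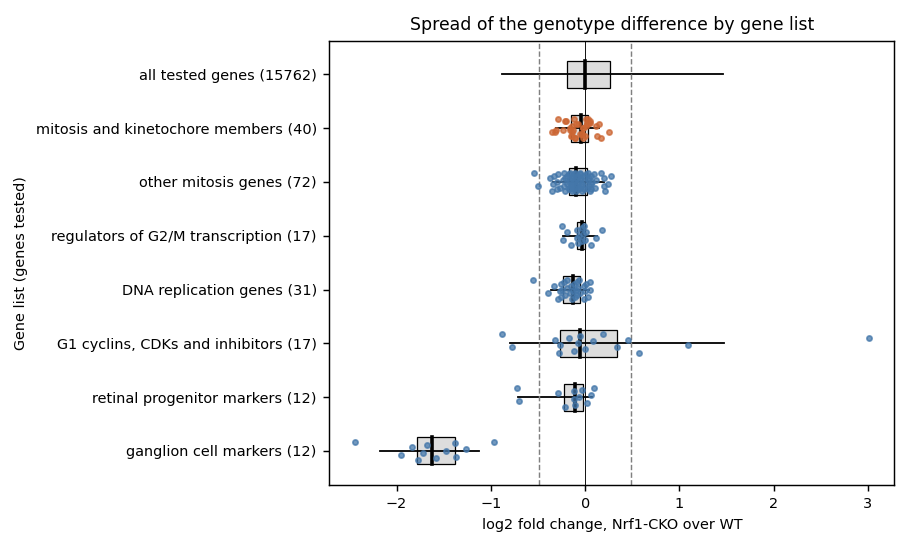
Log2 fold change, Nrf1-CKO over WT, by gene list, with the number of tested genes in brackets. Boxes span the middle quartiles, thick lines are medians, whiskers run from the 5th to the 95th percentile, points are genes, and dashed lines mark a change of 1.4-fold. The 40 genes (orange) lie between the dashed lines around a median of -0.05, while the G1 list reaches 3.01 and the ganglion cell markers have a median of -1.63.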

How the data were processed

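RNA-seq of E13.5 retinas was available as 2 tables with 4 libraries each. Per the labels, reads were aligned to mm10 with TopHat2 and counted per gene with HTSeq, and the authors deposited these counts without normalization. The annotation release and strand setting are not given in the sources used here. The second deposited table holds normalized values on a log2 scale, and how the authors made them is not stated. The labels also name DESeq and limma, without saying what each was used for. HTSeq summary rows, from 74.0% to 75.0% of all entries in a library, stayed out of library sizes and tests. Most were alignments that were not unique, so genes with near-identical copies lose reads.

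The counts were filtered with edgeR's filterByExpr (minimum count 10), scaled with TMM factors and compared between genotypes by quasi-likelihood (edgeR 4.0.16, R 4.3.3) on all 15762 genes. The first call rule joins a minimum of 1.4-fold with an adjusted p up to 0.2, the study's thresholds, and the second takes an adjusted p up to 0.05. SEs and 95% intervals came from the same test. The calling of genes, but not the intervals, was tested on simulated data. The intervals cover the spread between 2 libraries, which may be technical. Libraries of a genotype differed beyond counting noise (chi-square of 42.0 per gene in WT and 51.5 in Nrf1-CKO). Alternatives were DESeq2 1.42.0, other scalings and filters, edgeR's exact test, a replicate block, limma 3.58.1 on the deposited log2 values, other thresholds and each library left out. The 40 genes and the lists were chosen with earlier results of these data known. Of the 40 genes, values in every library are given for those past a rule and for the central mitotic genes Cdk1, Ccnb1, Ccna2, Plk1, Aurka, Aurkb, Bub1, Bub1b, Mad2l1, Cenpa, Ndc80, Top2a, Mki67, Birc5 and Cdc20. In the other lists of cell cycle genes and in the progenitor markers, up to 3 genes a direction with the largest log2 fold change past a rule are named, as are Foxm1, Mybl2, Ccnd1, Cdkn1a, Pcna and Mcm2. The rule also covered the markers of other cell types, which are given as sums and counts only. Pax6, Sfrp2, Hba-a1 and Hbb-bt were named beyond it, after their values were seen. Gene positions come from GENCODE for GRCm38 and promoters from RefSeq for GRCm38.p6.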

Additional observations from a re-analysis of the deposited data

How the results depend on the processing

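None of the 40 genes was called at 1.4-fold and an adjusted p of 0.2 under any of the alternatives run, including glmTreat against that fold. With all 4 libraries, the other tests (glmTreat aside), scalings and filters called from 722 to 1326 of all tested genes lower and from 941 to 2167 higher. With 2 libraries per genotype, the standard error of a log2 fold change had a median of 0.083 over the 40 genes, which limits the differences that could be told from 0. In the main fit, all 40 changes were smaller than 1.4-fold, so the minimum fold alone left them uncalled. At an adjusted p of 0.05, the count of lower genes ran from 0 to 2 when each library was left out. It was 0 without the first WT library, 0 without the second, 1 (Mad2l1) without the second Nrf1-CKO library and 2 under the other alternatives, and fewer libraries also mean a weaker test. Ccnb1 made the count of higher genes 1 with upper-quartile factors and 1 with the replicate block. The replicate block changed no other call and gave a median of -0.05 for the 40 genes. The replicate numbers mark no stated pairing, and the correlation of the deviations of equally numbered libraries was -0.0054. The median log2 fold change of the 40 genes was -0.0084 with upper-quartile factors and ran from -0.11 to -0.041 with 1 library left out.

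Of 560 combinations of gene and alternative, 529 kept their direction and their call at 1.4-fold and an adjusted p of 0.2, and 31 had the opposite sign, over 15 genes whose log2 fold change was 0.11 or smaller in size. With library size only, these were Bub1b (-0.0066), Cenpk (-0.0025), Cenpf (-0.018) and Tpx2 (-0.012), and with upper-quartile factors Aurka (0.021), Birc5 (0.018), Cdca8 (0.010), Cenpm (0.016) and Spc24 (0.0017). With 1 library left out, log2 fold changes crossed 0 for Cdc25c (-0.019 to 0.065), Aurka (-0.087 to 0.047), Bub1b (-0.082 to 0.10), Bub3 (-0.013 to 0.085), Espl1 (-0.0012 to 0.064), Birc5 (-0.12 to 0.068), Cdca8 (-0.14 to 0.073), Cenpa (-0.011 to 0.25), Cenpk (-0.053 to 0.10), Cenpm (-0.12 to 0.065), Cenpe (-0.022 to 0.14), Cenpf (-0.0090 to 0.019), Spc24 (-0.11 to 0.050), Tpx2 (-0.065 to 0.078) and Ect2 (-0.052 to 0.12). The cause was not tested.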
